A study of Sus scrofa with 6 samples.

Results

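The annexin genes encode calcium-dependent proteins that bind acidic phospholipids on the inner face of cell membranes. The set described here holds 10 annexins (ANXA1 to ANXA8, ANXA10 and ANXA11), chosen by their symbols from the 29884 genes of the deposited expression table. Transcripts were measured by RNA sequencing in 6 libraries of cultured pig (Sus scrofa) testis cells, which the labels call porcine primitive spermatogonia, the germ cells that sustain sperm production. The 3 control libraries came from cells given 0.1% ethanol. The 3 RA libraries came from cells given all-trans-retinoic acid (RA), the active form of vitamin A, at 2 umol/L. Both groups share the same tissue and cell label, and the labels give no breed, animal age, culture time or batch. No label says that replicates are separate animals or cultures, so p-values describe the spread between libraries, which may be technical.

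Annexins share a core of repeats that carries the calcium-binding loops, and each has its own N-terminal tail that binds partner proteins such as the small S100 proteins. They organise membrane patches, bridge vesicles, link membrane to actin and help seal tears in the plasma membrane. Some also act outside the cell, ANXA1 as an anti-inflammatory ligand, ANXA2 as a docking site for plasminogen, and ANXA5 as a shield on exposed phosphatidylserine. In the testis, annexins are made by somatic cells as well as by germ cells.

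Values are FPKM, reads scaled to gene length and library total, and totals ran from 62084199 to 87520891 reads. RA replicate 2 stood apart, with correlations of 0.985 and 0.982 with RA replicates 1 and 3, which correlated at 0.996 with each other. Correlations between control libraries ran from 0.994 to 0.996, all across genes of log2(FPKM + 1), and genes are not independent replicates. The 8 germ cell markers examined were all detected, with a summed level of 186 to 195 FPKM in control and 157 to 176 in RA libraries. Most of that sum was UCHL1, at means of 121 FPKM in control and 105 in RA. Of the 8 markers, 4 fell by the test given below, which called 12% of all genes tested lower. The 7 Sertoli cell markers, genes of the somatic nurse cells of the testis, summed to 9298 to 9779 FPKM in control and 9589 to 10276 in RA, most of it the secreted protein gene CLU. Somatic and germ cell transcripts were both present, and no value here assigns annexin reads to a cell type.

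The annexins did not respond alike. ANXA1, ANXA8 and ANXA4 rose in RA, by 1.68, 2.13 and 1.20 times in mean FPKM. ANXA2 and ANXA7 fell, to 0.801 and 0.790 of control. ANXA5, ANXA6 and ANXA11 had RA means of 0.880, 0.864 and 0.887 of control and did not pass the test. ANXA3 and ANXA10 lay under the filter on low values, a mean of 0.5 FPKM over the 6 libraries, and were not tested.

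Log2(FPKM + 1) was tested with limma (two-sided), p-values were adjusted across the 14567 genes that passed the filter (Benjamini-Hochberg), and calls were made under 0.05. Of the 8 annexins kept, 3 passed as higher and 2 as lower in RA; among all genes kept, 13.9% passed as higher and 12% as lower (25.9% in either direction). The 3 RA libraries lay above all control libraries in 3 of the 8 and below them in 4, against 23.9% and 24% of all genes kept (48% in either direction). The median log2 change of the 8 was -0.18, beside -0.01 for all genes kept. In these bulk libraries, a change in the number of cells of a type and a change of RNA per cell cannot be told apart.

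**Figure D1:**
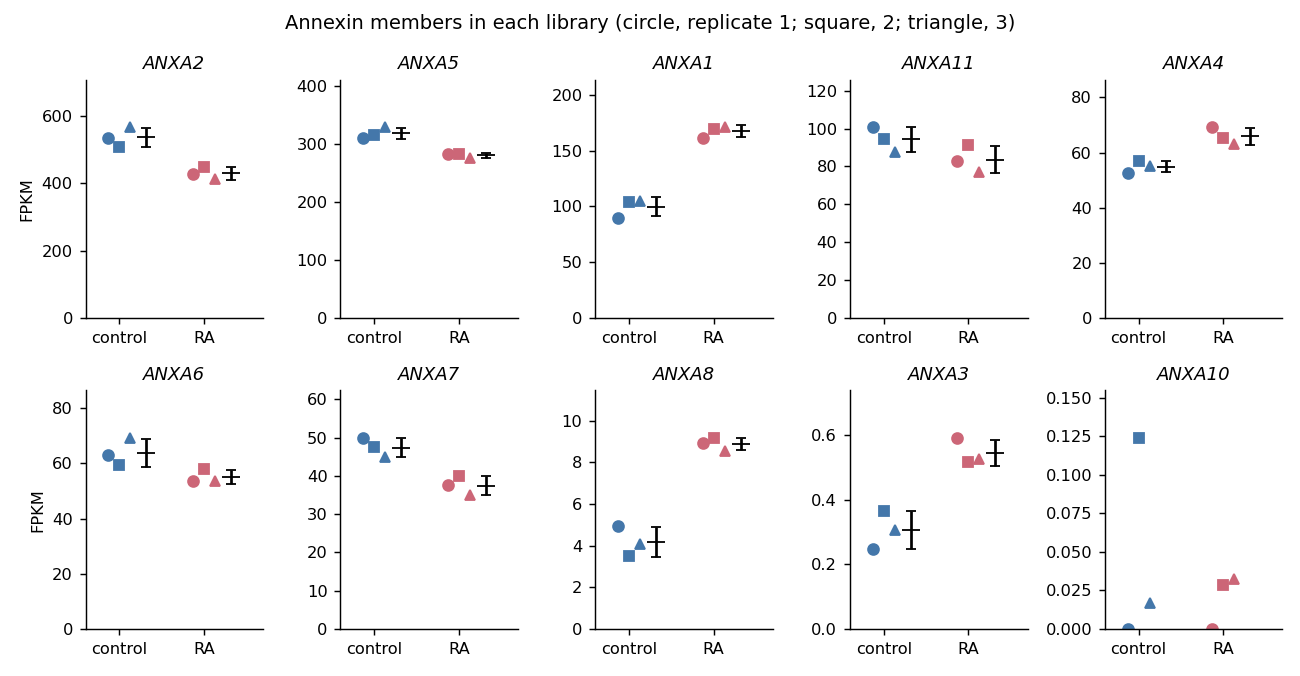
FPKM of the 10 annexins in each of the 3 control (blue) and 3 RA (red) libraries, each panel with its own linear axis from 0; black bars are the mean ± SD of a group (not drawn for ANXA10, which is at 0 in 2 libraries). ANXA1, ANXA8, ANXA4 and ANXA3 lie higher in every RA library than in any control library, and ANXA2, ANXA5, ANXA6 and ANXA7 lie lower.

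Per length, ANXA2 was the most abundant annexin in both groups, followed by ANXA5, and in control by ANXA1 and ANXA11, whose ranges overlapped (90.0 to 105 and 87.5 to 101 FPKM). ANXA6, ANXA4, ANXA7, ANXA8, ANXA3 and ANXA10 followed in control, each without overlap with its neighbour. In RA the order changed only in that ANXA4 (63.2 to 69.1 FPKM) stood above ANXA6 (53.7 to 57.9). ANXA1 stayed above ANXA11 and no longer overlapped it. The comparison of ANXA4 with ANXA6 turns on the listed lengths, 955 bases for ANXA4 and 2545 for ANXA6. ANXA6 had 8726 to 12773 reads per library and ANXA4 had 3264 to 5778. Among all genes of the table ranked by mean FPKM, ANXA2 was number 137, ANXA5 number 202 and ANXA1 number 458, and ANXA8 was number 6987.

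ANXA1, known as an effector of glucocorticoids that restrains phospholipase A2 and signals through formyl peptide receptors, was at 90.0, 104 and 105 FPKM in the 3 control libraries, in replicate order. It was at 161, 170 and 171 FPKM in the 3 RA libraries. The RA libraries lay close together and far above every control library. The log2 change was 0.74 ± 0.075 (SE, limma adjusted p = 0.000435), and 329 of the genes kept had a larger rise. ANXA1 passed the test in all 20 alternative analyses, with log2 changes from 0.64 to 0.78, and without RA replicate 2 the change was 0.73. The gene lies on chromosome 1, 226414200 to 226431963 on the plus strand, in the coordinates of the deposited table, and its listed length is 1516 bases.

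ANXA8, an annexin best known from epithelia, had the largest log2 change of the 8 members kept. It was at 4.93, 3.51 and 4.07 FPKM in the 3 control libraries, in replicate order, from 763, 516 and 491 reads. In the 3 RA libraries it was at 8.92, 9.17 and 8.56 FPKM, from 1515, 1302 and 1061 reads. The groups did not overlap, and the control libraries were spread more widely than the RA libraries. The log2 change was 0.94 ± 0.11 (SE, limma adjusted p = 0.00105), exceeded by the rise of 201 genes kept. It passed in all 20 alternatives, with log2 changes from 0.85 to 1.12. ANXA8 lies on chromosome 14, 88319209 to 88340716, minus strand.

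ANXA4, which binds membranes of secretory and epithelial cells and forms ordered arrays on them, was at 52.7, 57.0 and 55.1 FPKM in the 3 control libraries, in replicate order. It was at 69.1, 65.3 and 63.2 FPKM in the 3 RA libraries. RA replicate 3 and control replicate 2 were the closest pair, and the groups did not overlap. The log2 change was 0.26 ± 0.062 (SE, limma adjusted p = 0.0203). The call was lost without control replicate 1 (limma adjusted p = 0.0765), without control replicate 3 (0.0688), without RA replicate 1 (0.0779) and after quantile normalization (0.0550). After a correction of each library for gene length the log2 change was 0.13 (limma adjusted p = 0.216). ANXA4 has the shortest listed length of the 10 members, and across all genes kept the log2 change correlated with length (Spearman's rho = -0.32, and -0.20 without RA replicate 2). ANXA4 lies on chromosome 3, 72623311 to 72654591, minus strand.

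Some markers of several somatic cell types were higher in RA. Of 6 markers of simple epithelium, 4 rose and 0 fell, and their summed level was 68.0 to 91.7 FPKM in control and 230 to 265 in RA. Most of that sum was keratin 8 (KRT8), while the epithelial adhesion gene EPCAM averaged 0.613 ± 0.121 FPKM in control and 0.747 ± 0.128 in RA (SD, n = 3). Of 6 markers of contractile peritubular myoid cells, 5 rose and 1 fell (MYLK). Their sums were 479 to 542 FPKM in control and 1342 to 1594 in RA. Of 6 macrophage markers, 2 rose and 0 fell, and their sums overlapped, at 36.8 to 41.4 and 39.2 to 55.7 FPKM. These counts stand beside 13.9% of all genes kept that passed as higher and 12% as lower. No marker of these 3 lists was at 0 in all libraries, and their part in the annexin changes was not tested.

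ANXA2, which forms a complex with S100A10 at the plasma membrane and binds actin and tissue plasminogen activator, was at 535, 507 and 566 FPKM in the 3 control libraries, in replicate order. It was at 426, 449 and 412 FPKM in the 3 RA libraries. Every RA library lay below every control library. The log2 change was -0.32 ± 0.071 (SE, limma adjusted p = 0.0147). In size, 32.0% of all genes kept had a larger change. The call was lost without control replicate 1 (limma adjusted p = 0.0531), without control replicate 3 (0.0645) and without RA replicate 1 (0.0584), with the log2 change between -0.28 and -0.32 in these fits. ANXA2 lies on chromosome 1, 111588721 to 111635064, plus strand.

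ANXA7, first described as synexin, a protein that aggregates secretory granules, was at 49.9, 47.6 and 44.9 FPKM in the 3 control libraries, in replicate order. It was at 37.5, 40.0 and 34.9 FPKM in the 3 RA libraries, all lower than any control library. The log2 change was -0.33 ± 0.073 (SE, limma adjusted p = 0.0141). The call was lost without control replicate 1 (limma adjusted p = 0.0585) and without control replicate 2 (0.0590). It was also lost with edgeR on reads recovered from FPKM, where genes had at least 10 reads in at least 3 libraries (edgeR adjusted p = 0.0541, an analysis added after seeing the data). ANXA7 lies on chromosome 14, 76205238 to 76234646, minus strand.

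In the other 4 lists of cell type markers, more genes fell than rose. Of the 8 germ cell markers, 4 fell and 0 rose. Of 7 Sertoli cell markers, 4 fell (SOX9, AMH, FSHR and GATA4), 1 rose (INHA), and WT1 and CLU did not pass. The call of GATA4 was lost after the correction for length (limma adjusted p = 0.0539). The list for Leydig cells (5 kept, 1 rose and 2 fell) summed to 184 to 200.1 FPKM in control and 216 to 232 in RA. These Leydig sums were higher in every RA library than in any control library. The list for endothelium (5 kept, 0 rose and 1 fell) had sums that overlapped, at 25.7 to 28.8 FPKM in control and 23.9 to 28.2 in RA. Here too the shares over all genes kept were 13.9% higher and 12% lower. No marker of these 4 lists was at 0 in all libraries, and their part in the annexin changes was not tested.

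The other 3 annexins kept were abundant and had lower RA means without passing. ANXA5, the phosphatidylserine-binding annexin used as a probe of dying cells, was at 312, 316 and 329 FPKM in the control libraries (replicate order) against 282, 284 and 276 in the RA libraries. Its libraries were tightly grouped and did not overlap, and the log2 change of -0.18 ± 0.057 (SE) had a limma adjusted p of 0.0513. ANXA6, the largest annexin, with a duplicated core, was at 62.9, 59.3 and 69.2 FPKM in the control libraries (replicate order) against 53.7, 57.9 and 53.7 in the RA libraries (log2 change -0.21, limma adjusted p = 0.0766). RA replicate 2 lay just under control replicate 2. ANXA11, which tethers RNA granules to lysosomes and is mutated in some inherited motor neuron disease in people, was at 101, 94.7 and 87.5 FPKM in control and 82.7, 91.1 and 77.2 in RA, in replicate order. Here the groups overlapped, through RA replicate 2 (log2 change -0.17, limma adjusted p = 0.157).

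In all 3 of these genes RA replicate 2 was the highest RA library, and each passed when it was left out. Without it, the log2 change was -0.19 for ANXA5 (limma adjusted p = 0.0367), -0.24 for ANXA6 (0.0295) and -0.23 for ANXA11 (0.0331). The count of lower annexins was then 5 in place of 2. Among all genes kept, 2258 of 14590 were then lower, in place of 1750 of 14567. Without RA replicate 2, ANXA8, ANXA4, ANXA2 and ANXA7 kept their calls, with log2 changes of 0.92, 0.26, -0.35 and -0.38. With any other single library left out, ANXA5, ANXA6 and ANXA11 did not pass (limma adjusted p of 0.0809 to 0.363). Of the 20 alternatives, ANXA5 passed in 7, ANXA6 in 4 and ANXA11 in 3. ANXA5 did not pass with DESeq2 on recovered reads (DESeq2 adjusted p = 0.0677) or with median-ratio scaling (limma adjusted p = 0.117). ANXA5 also passed with a pseudocount of 0.1 (limma adjusted p = 0.0487), with a filter of mean FPKM 1 (0.0463) and with edgeR on recovered reads (edgeR adjusted p = 0.0405). ANXA5, ANXA6 and ANXA11 each passed with array weights (limma adjusted p = 0.00623, 0.00606 and 0.0182). That setting called many more genes, 3410 higher and 3621 lower of 14567, and its estimation stopped short of its convergence tolerance. Each also passed after quantile normalization (limma adjusted p = 0.00417, 0.0250 and 0.0209), and ANXA5 and ANXA6 after the correction for length (0.00794 and 0.0346). Quantile normalization, which gives every library the same distribution of values, moved the log2 change of ANXA5 to -0.32. ANXA5 lies on chromosome 8, 102387833 to 102420868, ANXA6 on chromosome 16, 71857229 to 71913723, and ANXA11 on chromosome 14, 81835205 to 81879565, all on the plus strand.

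**Figure D2:**
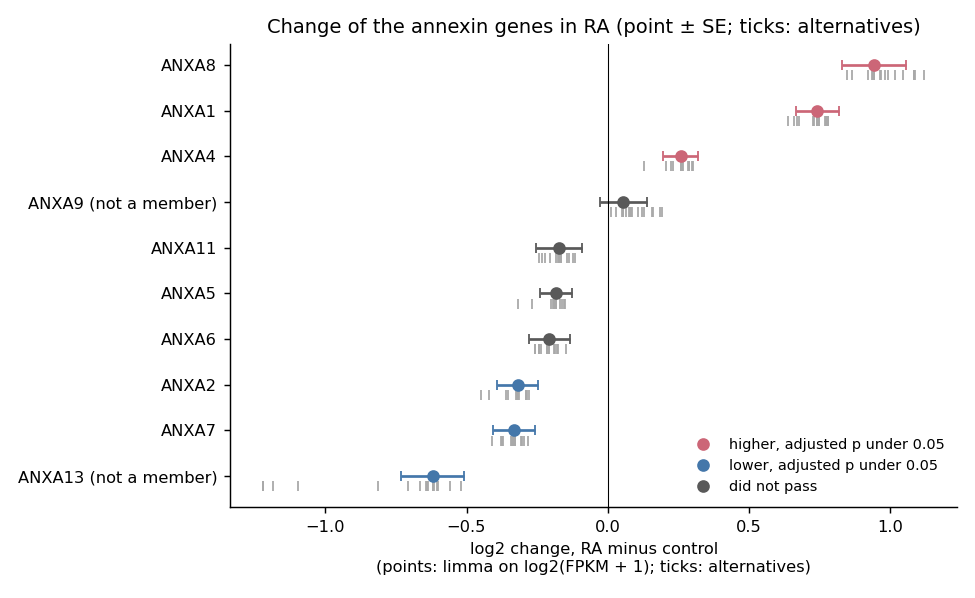
Log2 change of each annexin kept, RA minus control, as a point with its SE (limma on log2(FPKM + 1)), with grey ticks under it for the alternative analyses, some of which use another scale. ANXA8 and ANXA1 stand apart on the right, at 0.94 and 0.74, while ANXA2 and ANXA7 lie at -0.32 and -0.33; no tick of a member crosses 0.

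ANXA3 and ANXA10 had the lowest levels of the 10 members. ANXA3, an annexin abundant in neutrophils, was at 0.246, 0.365 and 0.305 FPKM in the control libraries (replicate order) against 0.590, 0.517 and 0.524 in the RA libraries. These values rest on 54, 76 and 52 reads in control and 142, 104 and 92 in RA, and the groups did not overlap. With no filter on low values the log2 change was 0.24 (limma adjusted p = 0.0420), a scale that shrinks changes of low genes. With edgeR on recovered reads of genes with at least 10 reads in at least 3 libraries it was 0.87 (edgeR adjusted p = 0.0573). That analysis called 9.71% of 20030 genes higher and 7.8% lower. ANXA10, known from stomach epithelium, had 0, 18 and 2 reads in the control libraries (replicate order) against 0, 4 and 4 in the RA libraries. A count of 0 allows up to 0.0196 FPKM in control replicate 1 and 0.0179 in RA replicate 1 by counting error alone. Control replicate 2 was the highest library and the groups overlapped. With no filter on low values the log2 change of ANXA10 was -0.04 (limma adjusted p = 0.686). ANXA3 lies on chromosome 8, 73970314 to 73993039, plus strand, and ANXA10 on chromosome 14, 21249020 to 21315260, minus strand.

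The table holds a further pair of annexins. ANXA13, an annexin of intestinal and kidney epithelium, was at 1.55, 1.99 and 1.32 FPKM in the control libraries (replicate order) against 0.682, 0.661 and 0.744 in the RA libraries. Every RA library was below every control library, opposite in direction to ANXA8 and ANXA1. The log2 change was -0.62 ± 0.11 (SE, limma adjusted p = 0.00606) and it passed in all 20 alternatives. On the scale of recovered reads it was -1.22 (edgeR adjusted p = 0.00502). For ANXA9, an atypical annexin whose calcium-binding loops are degenerate, the control mean was 0.534 ± 0.0610 FPKM and the RA mean 0.595 ± 0.0878 (SD, n = 3, limma adjusted p = 0.650). ANXA9, with a span of 19522 bases, overlaps MINDY1 on the opposite strand over 6921 bases. The strand setting of the counting is not given in the sources used here. Reads in the overlap therefore cannot be told from those of MINDY1.

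The authors' deposited table of called genes lists 6 of the 10 members. In all, 4377 genes were called by the authors, 2335 up and 2042 down, and the expression table holds 29884 genes. How many genes entered their test is unknown, so no share of tested genes can be set beside the 6 members. Their log2 fold changes were 0.78 for ANXA1, 1.12 for ANXA8, 0.87 for ANXA3 and 0.29 for ANXA4, all called up by the authors. The authors' deposited table calls ANXA2 (-0.29) and ANXA7 (-0.31) down, and also ANXA13 (-1.19). The authors' FDR in that deposited table was 1.85e-11 for ANXA1, 5.57e-09 for ANXA8, 0.0238 for ANXA4, 0.0291 for ANXA3, 0.0348 for ANXA2 and 0.0353 for ANXA7.

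ANXA1 held a larger share of the annexin transcripts in every RA library than in any control library. The summed FPKM of the 10 members was 1208, 1190 and 1260 in the control libraries (replicate order) against 1122, 1167 and 1097 in the RA libraries. The RA sums were lower than every control sum. ANXA1 made up 8.18% ± 0.673 of that sum in control and 14.8% ± 0.652 in RA (SD, n = 3). ANXA2 made up 43.9% ± 1.20 in control and 38.0% ± 0.445 in RA, and ANXA4 4.51% ± 0.243 and 5.84% ± 0.290. ANXA5 held 26.2% ± 0.407 and 24.9% ± 0.461. These shares sum to a whole, so a rise of ANXA1 lowers the others, and as a score over the members they were not tested.

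**Figure D3:**
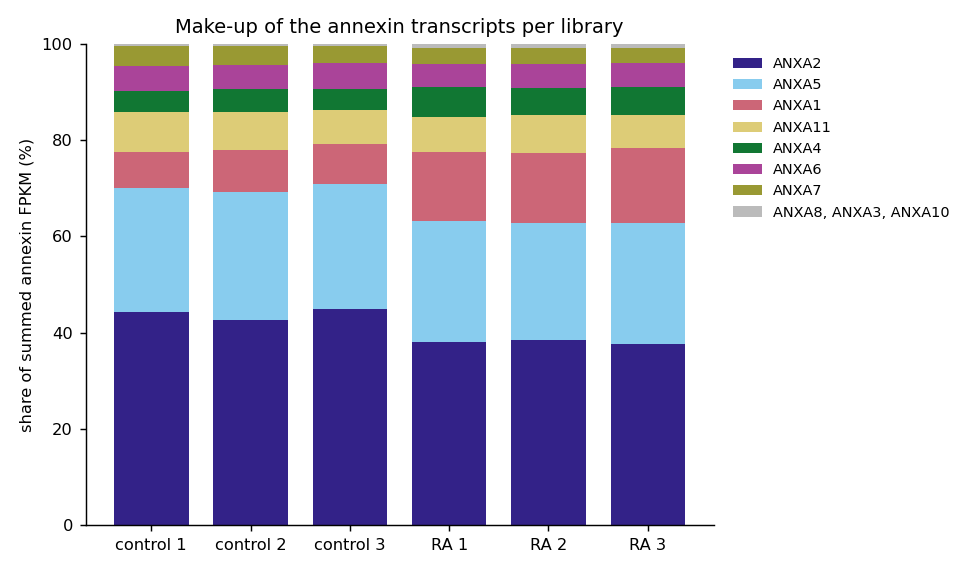
Share of each annexin in the summed FPKM of the 10 members, in percent, as 1 stacked bar per library. The ANXA1 segment runs from 7.45% to 8.77% in control libraries and from 14.4% to 15.6% in RA libraries, and the ANXA2 segment is smaller in every RA library.

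Ratios within a library do not depend on how libraries are scaled to each other. The ratio of ANXA1 to ANXA2 was 0.168, 0.206 and 0.185 in the control libraries (replicate order) against 0.378, 0.378 and 0.414 in the RA libraries. Its log2 difference was 1.07, with an exact permutation p of 0.1 (two-sided), the smallest that 3 against 3 libraries can give. The ratio of S100A10 to ANXA2, the subunits of 1 complex, was 0.280, 0.277 and 0.247 in control and 0.144, 0.166 and 0.149 in RA, in replicate order. Its log2 difference was -0.81, so S100A10 was lower relative to ANXA2 in every RA library. The ratio of S100A11, a binding partner of ANXA1, to ANXA1 was 6.43 ± 0.979 in control and 3.32 ± 0.132 in RA (SD, n = 3), a log2 difference of -0.95. The 3 ratios were chosen after the values were seen, and each had an exact permutation p of 0.1, which stayed 0.1 after Benjamini-Hochberg adjustment over the 3.

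**Figure D4:**
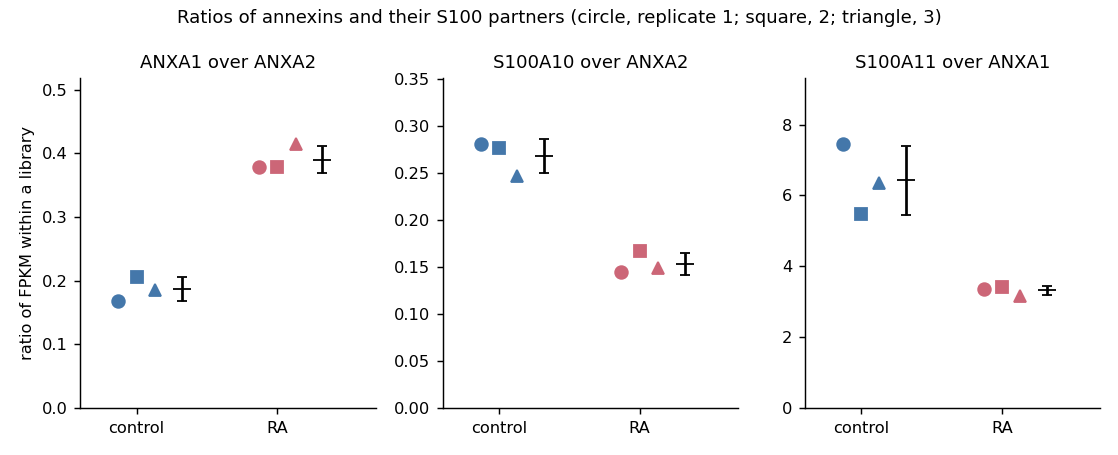
Ratios of FPKM within each library for ANXA1 over ANXA2, S100A10 over ANXA2 and S100A11 over ANXA1, with the mean ± SD of each group of 3 in black and axes from 0. The groups do not overlap in any panel: the first ratio is higher in RA (0.378 to 0.414 against 0.168 to 0.206) and the other 2 are lower.

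Genes that work with annexins were described in 6 lists, with 51 of 54 genes kept, of which 9 were higher and 14 were lower in RA. Their median log2 change was -0.10. These shares can be read against the 13.9% and 12% of all genes given above.

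A list of 10 annexin partners held S100 and EF-hand proteins and the scaffold AHNAK. Of these 10 genes, 5 fell and 1 rose, with a median log2 change of -0.47. S100A10, which holds ANXA2 in a tetramer, was at 150, 140 and 139 FPKM in the control libraries (replicate order) against 61.5, 74.7 and 61.3 in the RA libraries (log2 change -1.12, limma adjusted p = 0.000133). S100A6, a partner of ANXA11, fell from 781 ± 40.5 to 464 ± 21.6 FPKM (SD, n = 3, limma adjusted p = 0.000358). S100A4, which also binds ANXA2, fell from 120.1 ± 3.12 to 36.7 ± 3.97 FPKM (limma adjusted p = 1.82e-05). S100A11 was at 636 ± 54.8 and 554 ± 23.6 FPKM (limma adjusted p = 0.120). It passed as lower after quantile normalization (limma adjusted p = 0.00471), with array weights (0.0182) and after the correction for length (0.00709). The other falls were in S100B and AHNAK, a giant scaffold of the ANXA2 and S100A10 complex, from 31.9 ± 2.71 to 9.76 ± 2.25 FPKM. S100A12, a granulocyte protein, was the rise (4.62 ± 1.16 to 14.0 ± 4.27 FPKM, limma adjusted p = 0.00443). The values of AHNAK and S100A12 were picked out after they were seen. Sorcin (SRI) and PDCD6, calcium-binding partners of ANXA7 and ANXA11, had log2 changes of 0.25 and 0.21 and did not pass (limma adjusted p = 0.0576 and 0.0855).

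**Figure D5:**
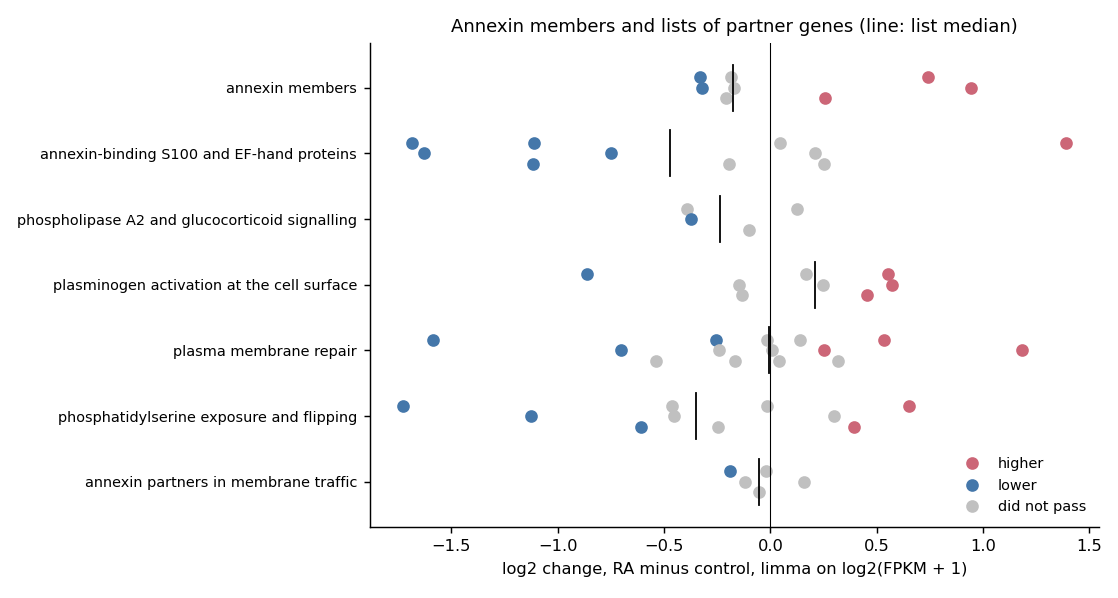
Log2 change of each gene kept, RA minus control (limma on log2(FPKM + 1)), for the annexin members and the 6 partner lists, with red points higher, blue points lower and grey points not passing; the black line is the median of a list. The list of S100 and EF-hand proteins, which also holds AHNAK, has the lowest median, -0.47, and the annexin members lie between -0.33 and 0.94.

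In plasminogen activation at the cell surface, which ANXA2 supports, 3 of 8 genes kept rose and 1 fell (median log2 change 0.21). The list mixes activators with inhibitors, so this count and median give no direction of activation. PLAT, tissue plasminogen activator, fell from 278 ± 7.29 to 153 ± 10.2 FPKM (SD, n = 3, limma adjusted p = 0.000133). PLAU, the urokinase activator, rose from 89.5 ± 5.26 to 123 ± 12.1 FPKM (limma adjusted p = 0.00668). ENO1, an enolase that also binds plasminogen, was at 817 ± 24.2 and 745 ± 27.9 FPKM (limma adjusted p = 0.180, and 0.00346 after quantile normalization, 0.0171 with array weights and 0.0171 after the length correction). SERPINB2 also rose. Plasminogen itself (PLG) lay under the filter, at means of 0.0467 FPKM in control and 0.0903 in RA.

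Around ANXA1 signalling, 1 of 4 genes kept fell and 0 rose. TSC22D3, the glucocorticoid-induced leucine zipper, fell from 51.2 ± 0.983 to 39.4 ± 3.04 FPKM (SD, n = 3, limma adjusted p = 0.00710). FKBP5, another glucocorticoid-induced gene, was at 26.9 ± 0.615 and 25.5 ± 5.67 FPKM (limma adjusted p = 0.644), and the glucocorticoid receptor NR3C1 at 9.54 ± 0.732 and 7.13 ± 1.60 (limma adjusted p = 0.0938). The phospholipase PLA2G4A was at 1.19 ± 0.186 and 1.40 ± 0.386 FPKM (limma adjusted p = 0.522). NR3C1 as lower and PLA2G4A as higher passed only with array weights (limma adjusted p = 0.0223 and 0.0221). PLA2G2A was at 0 in all libraries, and the formyl peptide receptors were not matched to a row.

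Of 14 plasma membrane repair genes, 3 rose and 3 fell (median log2 change -0.01). The 4 most abundant, CAPNS1, CAVIN1, CHMP4B and CAPN2, did not pass, with log2 changes from -0.02 to 0.14. Caveolin 1 (CAV1) fell from 48.5 ± 1.93 to 15.6 ± 2.16 FPKM (SD, n = 3, limma adjusted p = 5.03e-05), and the muscle repair protein TRIM72 rose from 0.428 ± 0.0521 to 2.25 ± 0.0939, both picked out after their values were seen. EHD1 also rose and EHD2 also fell. The calls of CAPN1 (lower) and VPS4A (higher) were lost in 11 and 9 of 20 alternatives, among them those that left out any of 5 libraries. In these alternatives limma or edgeR gave adjusted p-values of 0.0641 to 0.149 for CAPN1 and 0.0515 to 0.138 for VPS4A.

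Of 10 genes that move or read phosphatidylserine, the lipid that ANXA5 binds, 2 rose and 3 fell (median log2 change -0.35). The scramblase ANO6 fell from 32.2 ± 1.94 to 14.6 ± 3.83 FPKM (SD, n = 3, limma adjusted p = 0.00315). PLSCR3 rose from 26.9 ± 1.83 to 42.9 ± 4.34 FPKM (limma adjusted p = 0.00185). PLSCR1, another scramblase family member, rose from 8.17 ± 0.589 to 11.1 ± 0.554 FPKM (limma adjusted p = 0.0117, but 0.0564 without control replicate 2 and 0.0529 without control replicate 3). MFGE8, a secreted protein that bridges phosphatidylserine to phagocytes, was at 80.7 ± 2.98 and 80.1 ± 7.20 FPKM (limma adjusted p = 0.905). The flippase ATP8A1 and the phagocytic receptor MERTK were the other falls. Among 5 genes of membrane traffic kept, SEC31A (log2 change -0.19, limma adjusted p = 0.0477) was the fall, and its call was lost in 14 of 20 alternatives (adjusted p by limma, edgeR or DESeq2 of 0.0536 to 0.249), among them those that left out any of 5 libraries. LAMP1, a protein of the lysosomal membrane, was at 434 ± 19.8 and 430 ± 52.9 FPKM (limma adjusted p = 0.894), and EZR and ARF6 did not pass either.

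The genes most like ANXA1 over the 6 libraries, by Pearson's r of log2(FPKM + 1) among 11758 genes compared, were NSUN2 (0.998), EWSR1 (0.997), the vitamin D receptor VDR (0.996), NEURL1B (0.996) and the transferrin gene TF (0.996). Those most like ANXA7, the falling member of smallest p, were MN1 (0.996), TM7SF2 (0.995), E2F6, VAT1 and CNNM4 (each 0.994). These values describe 6 libraries in 2 groups that differ in treatment, and the genes of a library share its total. The sizes of change differed within these sets: the log2 change was 0.06 for EWSR1 and 0.91 for TF, beside 0.74 for ANXA1.

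The annexins are scattered over the genome, and the 4 on chromosome 14 (ANXA7, ANXA8, ANXA10 and ANXA11) are not neighbours. Of the 20 nearest genes kept on either side of the 10 members, 2 rose, 6 fell and 12 did not pass. Among all genes kept, 13.9% were higher and 12% lower. The nearest gene kept before ANXA1, 196858 bases away, was ALDH1A1, a retinaldehyde dehydrogenase that makes RA. It fell from a mean of 11.4 to 5.89 FPKM (log2 change -0.85, limma adjusted p = 0.00377), opposite to ANXA1. ANXA11 lay between ZCCHC24 and PLAC9, which both fell (log2 changes -0.80 and -1.81, limma adjusted p = 0.000682 and 8.16e-05), while ANXA11 itself did not pass. SNRPE, beside ANXA2, and TNIP1, beside ANXA6, were the rises (log2 changes 0.41 and 0.22, limma adjusted p = 0.00454 and 0.0402). The other falls were in QRFPR beside ANXA5, FRAS1 beside ANXA3 and SPOCK3 beside ANXA10 (log2 changes -0.92, -0.86 and -0.62). The nearest genes kept on either side of ANXA4, ANXA7 and ANXA8 did not pass.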

How the data were processed

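RNA was sequenced in 3 control and 3 RA libraries, grouped by their titles. The authors deposited FPKM values for 29884 genes, with listed lengths and coordinates. For the genes they called, the authors deposited whole-number counts per library with the log2 fold change, p-value and FDR of their own test. Alignment, counting, strand setting, build and that test: not given in the sources used here. Coordinates of all 12 annexin rows equal those of RefSeq on Sscrofa11.1.

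Whole reads (tolerance 0.05) were recovered for 99.8% to 99.9% of non-zero values, as FPKM times listed length times a library total. Each total was the median over the genes with deposited counts, and 42 genes that were not whole in some library were left out of count tests. The filter kept genes whose mean reached 0.5 FPKM. The main test was limma 3.58.1 (R 4.3.3) on log2(FPKM + 1) with a variance trend and no covariate. Alternatives were other pseudocounts, filters, scalings and limma settings, the replicate block, each library left out, a lowess correction for log2 length (span 0.3), and edgeR 4.0.16 and DESeq2 1.42.0 on recovered reads. edgeR with a filter of 10 reads in 3 libraries was added after seeing the data. The limma, edgeR and DESeq2 steps were tested on simulated data.

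Partner genes named are the 4 of highest mean FPKM in each list; others are said to be picked, or are named with their direction, after their values were seen. A gene that this rule takes is not reported here. The members and lists were chosen with earlier results of these data known. Of 115 genes listed, 111 were found. No library repeats another: the mean chi-square per gene between replicates of a group was 18.8 to 138. Library totals of 62084199 to 87520891 reads set the precision, and the limits for counts of 0 rest on 3 reads.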

Additional observations from a re-analysis of the deposited data

How the results depend on the processing

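Log2 changes of 101 genes were recomputed in 20 alternatives. Of 1979 values, 1862 kept their side of the threshold, 55 lost the call, 62 gained one and 0 reversed. Direction was compared only where a gene passed in the main test or in the alternative. The count of higher annexins was 3 and ranged from 2 to 3 with a library left out and up to 4 with no filter. The count of lower annexins was 2. It was 5 with quantile normalization and with array weights, 4 after the length correction, and 1 with edgeR at 10 reads in 3 libraries; with a library left out it ranged from 0 to 5. The 0, without control replicate 1, was from limma, with 3 members lower at an unadjusted p under 0.05, where edgeR with all libraries called 3 lower. Over all genes, 2019 were higher and 1750 lower, and with array weights 3410 and 3621; with a library left out these ranged from 1201 to 2248 and from 992 to 2258. Partner genes higher were 9, and 16 with array weights, whose estimation stopped short of its convergence tolerance.

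Deviations of same-numbered control and RA libraries correlated at r = -0.21, -0.09 and 0.34 for replicates 1, 2 and 3. Deviations from a group mean cancel within the group, so these values depend on each other. They cannot decide whether the numbers pair the samples, and the main test did not pair them. With the replicate block, 1610 genes were higher and 1405 lower, and 2 annexins were higher and 1 lower; ANXA2 had a limma adjusted p of 0.05002 and ANXA4 of 0.0559. Not every library deviated most like its own number. The median log2 change of all genes moved most in edgeR at 10 reads in 3 libraries, by 0.0315 over the genes shared with the main test. ANXA3 and ANXA10 had 52 to 142 and 0 to 18 reads per library. The causes of these differences were not tested.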
